A study of Mus musculus with 6 samples.

Results

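The transcripts described here are 9 marker genes of T, B and natural killer (NK) lymphocytes, namely Ptprc, Cd3e, Cd3d, Cd4, Cd8a, Cd79a, Nkg7, Gzma and Klrb1c. They were chosen by name as textbook markers, without a threshold on any value, and all 9 matched 1 row each of the 17975 genes in the expression table. RNA was measured by bulk sequencing of whole liver from 6 mice, 3 in each group. WT mice were wild type for NEK7, a kinase of the NIMA-related family. Hom mice were homozygous hepatocyte knockouts (NEK7 fl/fl, Alb-Cre+) of C57BL/6 origin. Their Cre is driven by the albumin promoter, which is active in hepatocytes and not in lymphocytes, so the marker genes were read from cells that were not the target of the deletion. The labels name no treatment, and the age and sex of these 6 mice are not given in the sources used here, beyond that mice of both sexes entered the study's knockout experiments.

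Ptprc encodes CD45, the surface phosphatase carried by nearly all white blood cells. Cd3e and Cd3d encode chains of the CD3 complex, which passes the signal of the T cell receptor into the cell, and Cd4 and Cd8a encode the co-receptors that divide T cells into helper and cytotoxic cells. Cd79a encodes a signalling chain of the B cell receptor. Nkg7 and Gzma encode a granule membrane protein and a granule protease of NK cells and cytotoxic T cells, and Klrb1c encodes NK1.1, the receptor used to recognise NK cells in C57BL/6 mice. The liver is rich in NK cells and other resident lymphocytes compared with most solid organs, yet hepatocytes supply most of its RNA, so these transcripts are rare in whole tissue. In bulk tissue, a change in the number of cells of a type and a change in RNA per cell cannot be told apart.

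The promoter stretches of 4 members are shown because they cover the range of outcomes described below, from the pair that passed the test (Ptprc and Cd3e), through a gene whose groups did not overlap (Cd8a), to one with no detectable change (Klrb1c). Each is the 150 bases before the annotated start, on the gene's own strand, from RefSeq on GRCm38.p6. Capitals mark matches on either strand to the core letters of the ETS family (GGAAGT) or the RUNX family (TGNGGT), transcription factors with known roles in lymphocytes.
Ptprc, chr1:138175306-138175455, minus strand: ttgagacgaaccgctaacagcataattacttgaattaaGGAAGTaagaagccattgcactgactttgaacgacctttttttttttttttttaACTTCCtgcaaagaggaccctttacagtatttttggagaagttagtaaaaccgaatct
Cd3e, chr9:45009612-45009761, minus strand: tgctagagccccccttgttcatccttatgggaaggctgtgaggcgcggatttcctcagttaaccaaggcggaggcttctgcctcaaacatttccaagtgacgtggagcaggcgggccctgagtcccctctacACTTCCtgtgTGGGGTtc
Cd8a, chr6:71373277-71373426, plus strand: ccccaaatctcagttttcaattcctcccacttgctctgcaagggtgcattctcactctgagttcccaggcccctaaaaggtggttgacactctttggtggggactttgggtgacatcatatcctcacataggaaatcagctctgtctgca
Klrb1c, chr6:128788642-128788791, minus strand: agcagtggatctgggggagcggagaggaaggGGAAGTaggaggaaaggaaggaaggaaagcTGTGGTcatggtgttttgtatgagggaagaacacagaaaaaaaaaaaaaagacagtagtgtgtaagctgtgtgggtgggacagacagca
Over the 250 bases before the start, 5 of the 8 member promoters found in the table held the ETS letters, against 19.7% of all 32851 promoters. The RUNX letters were in 6 of 8 member promoters, against 40.1% of all promoters. Klrb1c, which did not change detectably, carried both motifs, and Cd8a, with separate groups, carried neither. The octamer ATGCAAAT was in 0 of the 8 and in 1.60% of all promoters, while TATAAA was in 1 of the 8 (Ptprc) and in 12.4% of all. Such a match describes letters in a window and does not show a bound site.

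By position in GENCODE M21 on GRCm38, Cd3d (chr9:44981786-44987339) and Cd3e (chr9:44998740-45009627) lie in 1 cluster of 40.1 kb with Cd3g, the third CD3 chain, and the starts of Cd3g and Cd3d face away from each other 1354 bases apart. Klrb1c (chr6:128778485-128789215) lies in a family of near copies with Klrb1a, Klrb1b and Klrb1f, so reads of Klrb1c could have been shared among them in counting, and its values are uncertain to that extent. Ptprc is at chr1:138062861-138175708, Cd4 at chr6:124864692-124888221, Cd8a at chr6:71373427-71379173, Cd79a at chr7:24897381-24902197, Nkg7 at chr7:43437073-43438249 and Gzma at chr13:113093825-113100981. Nek7, the targeted gene, lies near Ptprc on the same chromosome, at chr1:138482875-138620141. The part of this closeness in the values of Ptprc, and in the ratios to Ptprc below, was not tested.

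The libraries held between 19349356 and 19730154 estimated counts each. Nek7, the targeted gene, had 1127, 1077 and 1036 counts in WT livers and 310, 439 and 387 in Hom livers, a level of 25.2% of WT. A pair of libraries stood apart from their own groups. WT replicate 1 differed from WT replicates 2 and 3 with a chi-square per degree of freedom of 133.5 and 151.9, against 22.3 between them, and Hom replicate 1 with 80.8 and 75.6, against 25.3. Hom replicate 1 also had 0 counts for the Y-linked genes Ddx3y and Kdm5d, which had at least 243 in every other liver, and 149 counts for Uty, against at least 464, so it read as a different sex from the other 5 livers. The part of sex in the values of Hom replicate 1 was not tested. Values below are therefore given with and without these libraries where it matters. Levels are CPM, the counts scaled to a common library size by trimmed means (TMM CPM), unless another scale is named, and changes are log2 fold changes of Hom against WT with standard errors, from the quasi-likelihood test of edgeR, with p-values adjusted by Benjamini-Hochberg over the 13805 genes that passed a filter on low counts.

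Across the set, Ptprc and Cd3e rose in Hom livers, and no other member passed the test. Mean levels were higher in Hom livers for 7 of the 9 members and lower for Cd4 and Klrb1c. Of the 8 members tested, 2 were called higher, next to 21.5% of all genes tested, and 0 were called lower, next to 20.1% of all genes. At an unadjusted p under 0.05, 3 members were higher and 0 lower by edgeR, and 4 and 0 by DESeq2. The share of all genes at this unadjusted threshold was not taken, so these counts have no background beside them. The median log2 fold change of the tested members was 1.12, and that of all genes was -0.002. All 3 Hom livers lay above all 3 WT livers for 3 of the 9 members (Ptprc, Cd3d and Cd8a), of which Cd3d was not tested. Among tested members it was 2 of 8, next to 28.7% of all genes tested.

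**Figure D1:**
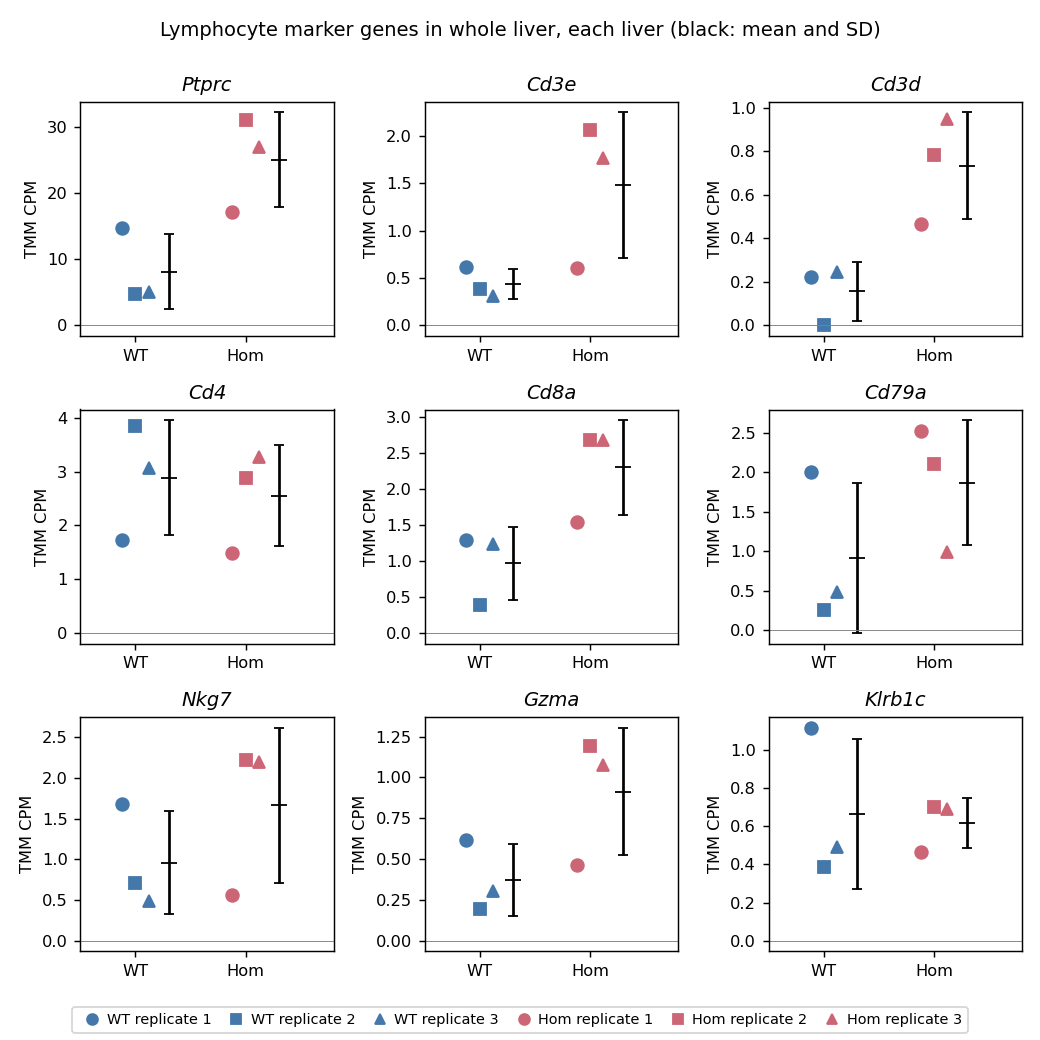
TMM CPM (vertical axis, own scale per panel) of the 9 marker genes in each WT and Hom liver, with circles, squares and triangles for replicates 1, 2 and 3, and black bars for the mean and SD of 3 livers. WT replicate 1 is the highest WT liver for 7 of 9 genes, and Hom replicate 1 the lowest Hom liver for 8 of 9.

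Ptprc was the most abundant member and the one with the most counts behind its value. It measured 14.7, 4.68 and 4.98 CPM in WT livers (263, 73 and 81 counts) and 17.1, 31.0 and 26.9 CPM in Hom livers (366, 752 and 625 counts). The groups did not overlap, but WT replicate 1 lay close to Hom replicate 1, 3.04 times above the mean of the other WT livers. The mean was 8.12 ± 5.69 CPM in WT and 25.0 ± 7.16 CPM in Hom (SD, n = 3), a log2 fold change of 1.62 ± 0.46 (adjusted p = 0.030). Without WT replicate 1 it was 2.37 (adjusted p = 0.0026). The call was lost without WT replicate 2 (adjusted p = 0.091), WT replicate 3 (0.079), Hom replicate 2 (0.089) or Hom replicate 3 (0.082), at log2 fold changes of 1.34 to 1.56.

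Cd3e, the CD3 epsilon chain, was low, with 11, 6 and 5 counts in WT livers and 13, 50 and 41 in Hom livers. These correspond to 0.614, 0.385 and 0.307 CPM in WT and to 0.607, 2.06 and 1.77 CPM in Hom. Hom replicates 2 and 3 stood above every WT liver, whereas Hom replicate 1 was at the level of WT replicate 1, so the groups overlapped. The log2 fold change was 1.74 ± 0.54 (adjusted p = 0.038). The call was lost without WT replicate 2 (adjusted p = 0.115), WT replicate 3 (0.108), Hom replicate 2 (0.130) or Hom replicate 3 (0.116), and was retained without WT replicate 1 (0.048) or Hom replicate 1 (0.0094).

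Cd3d, the CD3 delta chain, had 4, 0 and 4 counts in WT livers and 10, 19 and 22 in Hom livers. Every Hom liver was above every WT liver, at 0.467, 0.783 and 0.948 CPM against 0.223, 0 and 0.246 CPM. It fell just below the filter on low counts, which asked for 0.515 CPM before scaling in at least 3 livers, and was therefore not tested in the main fit. With no filter its log2 fold change was 2.17 ± 0.78 (adjusted p = 0.073). Without Hom replicate 1 it passed both the filter and the test (2.39, adjusted p = 0.0499). In that fit it passed the filter through the Hom livers alone, the group where it was high, so it could hardly have been called lower. Gzma was the member just above the filter.

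The co-receptors of T cells differed from each other in their values. Cd8a, the co-receptor of cytotoxic T cells, measured 1.28, 0.385 and 1.23 CPM in WT livers (23, 6 and 20 counts) and 1.54, 2.68 and 2.67 CPM in Hom livers (33, 65 and 62 counts). The groups did not overlap, and Hom replicate 1 was again nearest to WT. The log2 fold change was 1.24 ± 0.46, and the unadjusted p of 0.032 became 0.069 after adjustment, so Cd8a was not called.

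Cd4, the co-receptor of helper T cells that some macrophages also carry, measured 1.73, 3.85 and 3.07 CPM in WT livers (31, 60 and 50 counts) and 1.49, 2.89 and 3.28 CPM in Hom livers (32, 70 and 76 counts). The groups overlapped fully, with replicate 1 the lowest of both groups. Its log2 fold change was -0.17 ± 0.40 (95% interval -1.11 to 0.77, adjusted p = 0.76). This sign depended on scaling, because with library size alone the value was 0.32 (adjusted p = 0.52). The difference between the changes of Cd4 and Cd8a was not tested.

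Cd79a, the B cell member, measured 2.01, 0.257 and 0.492 CPM in WT livers (36, 4 and 8 counts) and 2.52, 2.10 and 0.991 CPM in Hom livers (54, 51 and 23 counts). WT replicate 1 overlapped the Hom livers and stood 5.37 times above the mean of the other WT livers, the widest such gap among the members. The log2 fold change was 1.00 ± 0.71 (95% interval -0.69 to 2.68, adjusted p = 0.30). Without WT replicate 1 it was 2.29 ± 0.58 and passed the test (adjusted p = 0.025).

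Among the cytotoxic members, Nkg7 measured 1.68, 0.706 and 0.492 CPM in WT livers (30, 11 and 8 counts) and 0.560, 2.23 and 2.20 CPM in Hom livers (12, 54 and 51 counts). Hom replicate 1 lay among the WT livers and WT replicate 1 between the Hom livers. The log2 fold change was 0.78 ± 0.64 (95% interval -0.72 to 2.29, adjusted p = 0.35).

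Gzma, encoding granzyme A, measured 0.614, 0.192 and 0.307 CPM in WT livers (11, 3 and 5 counts) and 0.467, 1.20 and 1.08 CPM in Hom livers (10, 29 and 25 counts). Hom replicate 1 fell below WT replicate 1. The log2 fold change was 1.27 ± 0.55 (95% interval -0.03 to 2.56, adjusted p = 0.10).

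Klrb1c, the NK1.1 gene, measured 1.12, 0.385 and 0.492 CPM in WT livers (20, 6 and 8 counts) and 0.467, 0.701 and 0.690 CPM in Hom livers (10, 17 and 16 counts). The 3 Hom livers fell inside the WT range. The log2 fold change was -0.11 ± 0.47 (95% interval -1.23 to 1.00, adjusted p = 0.86), and its sign turned with library size alone (0.32) and without WT replicate 1 (0.49), without passing the test in either case (adjusted p = 0.62 and 0.40).

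**Figure D2:**
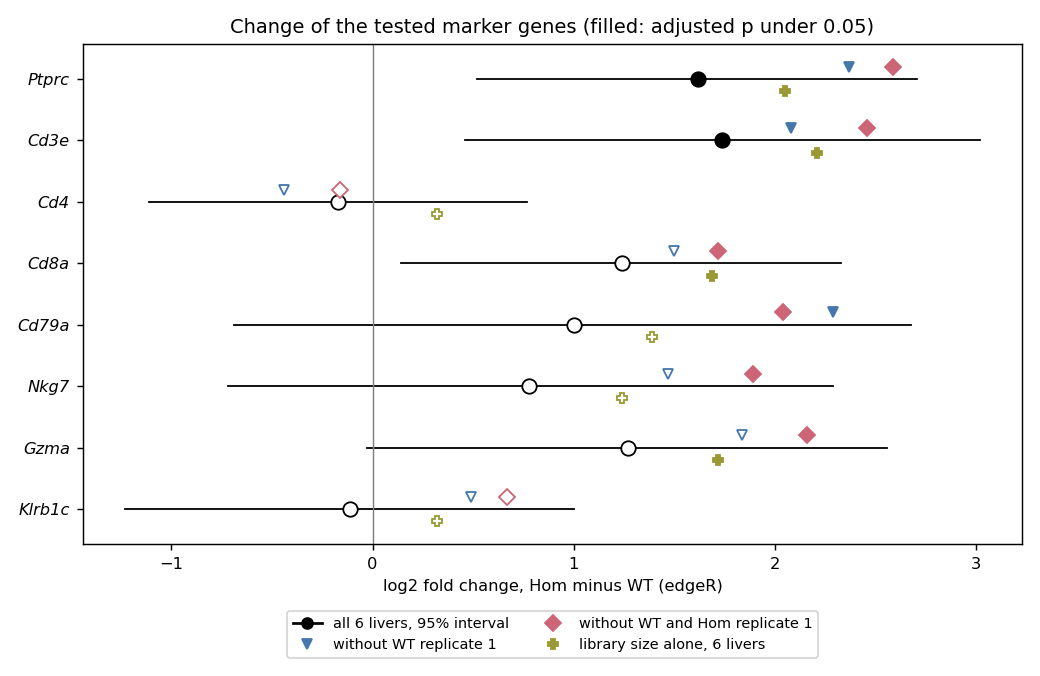
Log2 fold change of Hom against WT (horizontal axis) for the 8 tested marker genes, with black circles and lines for the value and 95% interval over 6 livers, and coloured symbols for the value without WT replicate 1, without replicate 1 of both groups, or scaled by library size alone. Filled symbols have an adjusted p under 0.05, which over 6 livers are Ptprc (1.62) and Cd3e (1.74).

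The count of called members moved with the libraries and the scaling. Without WT replicate 1, 3 of 9 members were higher (Ptprc, Cd3e and Cd79a), next to 21.5% of all genes. With replicate 1 of both groups left out, which left 2 against 2 livers and was chosen after the values were seen, 7 of 9 were higher, next to 23.9% of all genes. Those 7 were Ptprc (2.59), Cd3e (2.46), Cd3d (2.74), Cd8a (1.72), Cd79a (2.04), Nkg7 (1.89) and Gzma (2.16), while Cd4 (-0.16, adjusted p = 0.62) and Klrb1c (0.67, adjusted p = 0.22) were not called. Cd3d again passed the filter through the Hom livers alone. With library size alone, 4 of 8 were higher (Ptprc, Cd3e, Cd8a and Gzma), next to 47.6% of all genes, and the median over all genes moved to 0.45. Without WT replicate 2, WT replicate 3, Hom replicate 2 or Hom replicate 3, 0 members were called by edgeR, with 2, 4, 1 and 2 members higher at an unadjusted p under 0.05. Over all genes, these fits called 2070 of 14230, 2438 of 14142, 2023 of 14014 and 1986 of 14020 higher. No such share was taken at the unadjusted threshold.

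Levels between genes were compared per length, on the deposited TPM, a length-corrected share of all transcripts. In Hom livers Ptprc came first (11.6 ± 3.97 TPM), followed by Nkg7 (4.95 ± 2.99), Cd79a (4.31 ± 1.69), Gzma (2.48 ± 1.18), Cd3e (2.37 ± 1.32), Cd4 (1.91 ± 0.75), Cd8a (1.68 ± 0.57), Cd3d (1.55 ± 0.65) and Klrb1c (0.54 ± 0.15). Neighbours in that order overlapped within 1 SD, apart from Cd3d and Klrb1c. In WT livers the order was Ptprc (2.54 ± 2.08 TPM), Nkg7 (1.90 ± 1.47), Cd79a (1.50 ± 1.69), Cd4 (1.33 ± 0.39), Gzma (0.67 ± 0.47), Cd8a (0.46 ± 0.26), Cd3e (0.46 ± 0.22), Klrb1c (0.39 ± 0.28) and Cd3d (0.22 ± 0.19), and all neighbours overlapped. Cd4 thus held the fourth place in WT livers and the sixth in Hom livers. TPM is relative to the whole library, like library size alone, so its ratios between groups exceed those of TMM CPM.

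Each member was also set against Ptprc in the same liver, which asks whether it kept pace with the pan-leukocyte transcript. Cd3e had 4.18%, 8.22% and 6.17% as many counts as Ptprc in WT livers and 3.55%, 6.65% and 6.56% in Hom livers, so the groups overlapped (log2 difference -0.15, exact two-sided permutation p = 0.7). Cd8a held a narrow range in Hom livers, with 9.02%, 8.64% and 9.92%, after 8.75%, 8.22% and 24.7% in WT livers (log2 difference -0.40, exact permutation p = 0.9). Cd79a overlapped too, with 13.7%, 5.48% and 9.88% in WT and 14.8%, 6.78% and 3.68% in Hom (log2 difference -0.34, exact permutation p = 0.8).

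Klrb1c was lower against Ptprc in every Hom liver, with 7.61%, 8.22% and 9.88% in WT livers and 2.73%, 2.26% and 2.56% in Hom livers. The log2 difference was -1.76, with an exact permutation p of 0.1, the smallest that 3 against 3 livers allow, and 0.23 after Benjamini-Hochberg adjustment over the 7 members compared. Nkg7 went from 11.4%, 15.1% and 9.88% to 3.28%, 7.18% and 8.16% (-1.05), and Gzma from 4.18%, 4.11% and 6.17% to 2.73%, 3.86% and 4.00% (-0.44), with the same exact and adjusted p. In these 3 of 7 members all Hom livers were lower, but so they were for 62.1% of the other tested genes with a count in every liver, since Ptprc itself was high in Hom livers. Cd4 had 11.8%, 82.2% and 61.7% of the Ptprc counts in WT livers and 8.74%, 9.31% and 12.2% in Hom livers, and WT replicate 1 alone made the groups overlap (-1.97, exact permutation p = 0.2). Set against the sum of 20 pan-leukocyte genes in place of Ptprc, the differences of Cd3e (0.93), Cd8a (0.68), Cd79a (0.75), Nkg7 (0.04) and Gzma (0.64) lost their negative sign, while Cd4 (-0.89) and Klrb1c (-0.68) kept it. Cd3d, with 0 counts in a WT liver, was left out of these ratios.

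**Figure D3:**
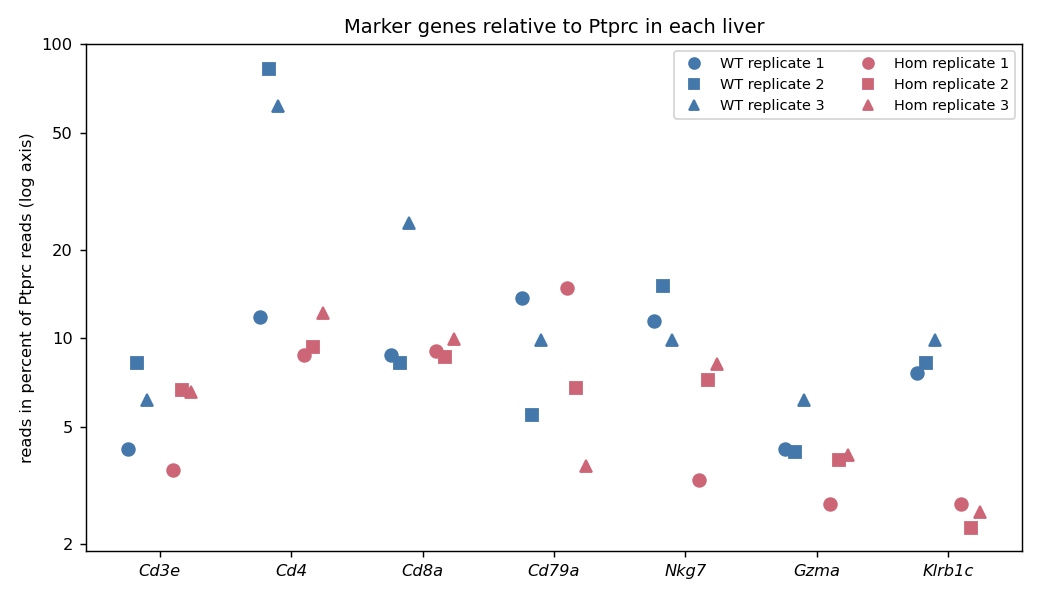
Counts of 7 marker genes in percent of the Ptprc counts of the same liver (vertical log axis), for WT (blue) and Hom (red) livers. Klrb1c sits between 7.61% and 9.88% in WT and between 2.26% and 2.73% in Hom, while Cd3e overlaps.

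The patterns nearest to each member over the 6 livers were taken as the tested genes with the smallest mean absolute difference in centred log2 CPM. For Ptprc these were Coro1a (0.075), Runx3 (0.096) and Adcy7 (0.105), for Cd3e Ctsw (0.116), Ly9 (0.144) and Cd101 (0.153), and for Cd8a Cgas (0.098), Troap (0.123) and Apbb1ip (0.154). For Nkg7 they were Cyfip2 (0.202), Il2rb (0.212) and Btla (0.224), and for Gzma Pkmyt1 (0.103), Padi2 (0.112) and Ncaph (0.116). For Klrb1c they were Tnfrsf21 (0.057), Dok2 (0.086) and Spc25 (0.102), for Cd4 Tbc1d30 (0.080), Mcm8 (0.102) and Nxpe2 (0.132), and for Cd79a Apol11b (0.213), Pdgfrl (0.257) and Smim40 (0.259). Coro1a and Ly9 are leukocyte genes, and Ctsw, Il2rb and Btla are known from lymphocytes. Several of the others, such as Troap, Ncaph and Spc25, are cell division genes, and these are descriptions over 6 livers with no test.

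Wider lists of lymphocyte genes that held none of the 9 members were counted in the same fit. Of 20 pan-leukocyte genes tested, 10 rose and 0 fell (median log2 fold change 1.06, in a fit that called 21.5% of all genes higher). Those that rose were Cd48 (1.53), Rhoh (1.59), Coro1a (1.56), Cd52 (1.55), Ptprcap (1.27), Was (1.27), Il2rg (1.20), Laptm5 (1.09), Arhgdib (1.03) and Ptpn6 (0.48). Lcp1, with the highest mean CPM of the list, was at 116.5 ± 10.8 CPM in WT and 133.9 ± 21.5 CPM in Hom and was not called (adjusted p = 0.27).

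In the same fit, with 21.5% of all genes higher, 10 of 20 T cell genes tested rose and 0 fell (median 1.27). Of those that rose, Cd2, Cd5, Cd6 and Themis had at most 9 counts in every WT liver. They passed the filter through the Hom livers alone, the group where they were high, so they could hardly have been called lower. With at least 10 counts in every liver, 2 of 6 T cell genes were higher. Cd3g, the CD3 gamma chain, rose by 1.74 ± 0.44 (adjusted p = 0.020) from 0.949, 0.641 and 0.246 CPM in WT livers to 1.68, 2.35 and 2.20 CPM in Hom livers. Also among those that rose were the surface molecules Cd2 (2.31), Cd5 (2.06), Cd6 (1.65), Cd28 (2.13), Thy1 (1.03) and Il7r (1.79), and the signalling genes Lck (1.47) and Themis (3.28). Thy1 is also known from fibroblast-like cells. Cd8b1, the partner chain of Cd8a, was at 0.94 ± 0.50 (adjusted p = 0.17). The kinase gene Zap70 and the transcription factor gene Tcf7 had the highest mean CPM of the list over the 6 livers. Their log2 fold changes were -0.80 (adjusted p = 0.18) and 0.09 (adjusted p = 0.73). Zap70 had 80, 143 and 137 counts in WT livers and 148, 57 and 79 in Hom livers. Without Hom replicate 1, 1 T cell gene was called lower, and the lowest log2 fold change of the list was -1.35.

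In the fit that called 21.5% of all genes higher, 5 of 13 B and plasma cell genes tested rose and 0 fell (median 1.33). These were Jchain (2.17), the joining chain of secreted antibody, Blnk (3.46), Tnfrsf13b (2.17), Pou2af1 (1.64) and Cd72 (1.45). Jchain had the highest mean CPM of the list, with 29.0, 7.83 and 4.73 CPM in WT livers and 69.1, 82.6 and 37.4 CPM in Hom livers. Blnk and Cd72 are used by macrophages too. Cd79b, the partner chain of Cd79a, was at 0.74 ± 0.45 (adjusted p = 0.22), and Ms4a1 and Pax5 were below the filter.

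Of 12 NK and cytotoxic genes tested, 3 rose and 0 fell (median 1.37), a share close to the 21.5% of all genes called higher. The other 18 of the 30 were below the filter, Prf1, Ncr1, Eomes and Ifng among them. The 3 were Itga2 (2.66), Ccl5 (1.78) and Tbx21 (1.19). Itga2 encodes an integrin of NK cells that epithelial cells and platelets also carry, and Tbx21 encodes the transcription factor T-bet. Tbx21 had 7, 4 and 4 counts in WT livers and passed the filter through the Hom livers alone. Il2rb, with the highest mean CPM of the list, was at 0.58 ± 0.45 (adjusted p = 0.33), and Klrb1b, a near copy of Klrb1c, at 2.07 ± 0.72 (adjusted p = 0.055). In these 4 lists, 0 genes were lower at an unadjusted p under 0.05 in the main edgeR fit or by DESeq2. Other edgeR fits differed, with 1 T cell gene called lower without Hom replicate 1 and without replicate 1 of both groups. At an unadjusted p under 0.05, 1 T cell gene was lower without WT replicate 1. At that threshold, 1 B and plasma cell gene was lower with no filter, without WT replicate 2 or without Hom replicate 2.

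**Figure D4:**
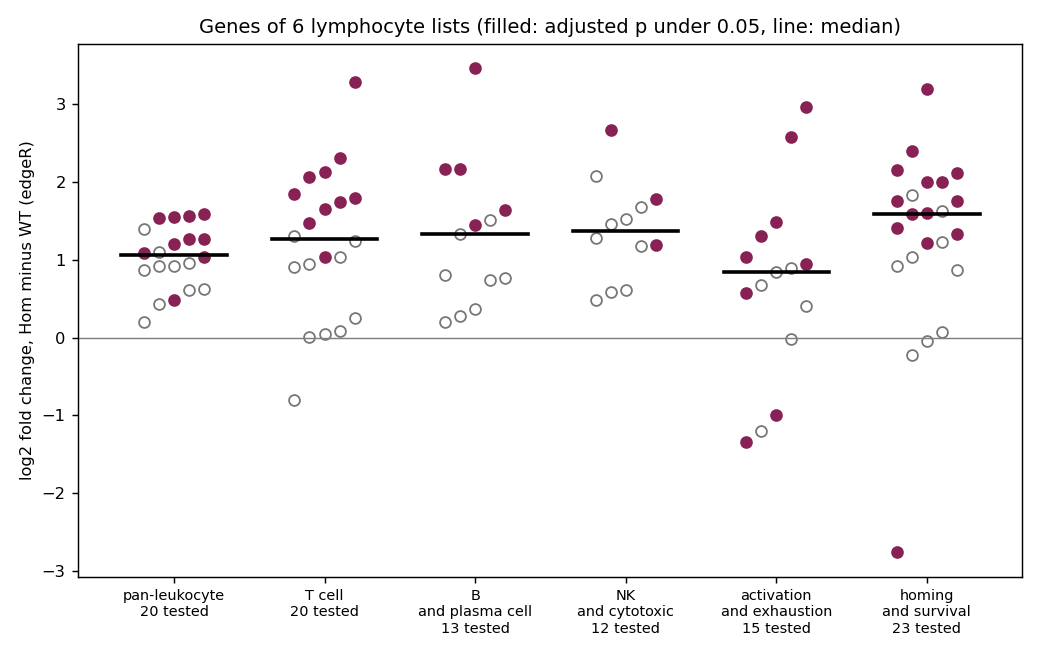
Log2 fold change of Hom against WT (vertical axis) for every tested gene of 6 lists that exclude the 9 markers, filled where the adjusted p was under 0.05, with a line at each median. Medians lie between 0.84 (activation and exhaustion) and 1.59 (homing and survival).

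Of 15 genes of lymphocyte activation and exhaustion, 7 rose and 2 fell (median 0.84), next to 21.5% of all genes higher and 20.1% lower. Havcr2 (2.96), encoding TIM-3, Icosl (2.58), Tnfrsf18 (1.48), Il2ra (1.31), Cd274 (1.04), encoding PD-L1, Cd44 (0.95) and Nfatc1 (0.57) rose, whereas Lag3 fell by 1.00 and Tox fell by 1.34 on the log2 scale. The Lag3 call (adjusted p = 0.039) was lost in each fit that left out 1 liver (adjusted p = 0.055 to 0.138), with library size alone (0.227) and with DESeq2 (0.060), and Tox kept its call in all of these. Several of these are not limited to lymphocytes. Of 23 homing and survival genes, 13 rose and 1 fell (median 1.59), next to the same shares. Of those that rose, Cxcr6 and Il7 had at most 9 counts in every WT liver and passed the filter through the Hom livers alone. The receptors Ccr2 (3.19), Cxcr6 (2.00) and Cxcr4 (1.60), the ligands Cxcl16 (2.15), Cxcl10 (1.33) and Ccl19 (1.41), and the survival factors Il7 (2.40), Il15 (1.59) and Tnfsf13b (2.00), which encodes BAFF, were among those that rose, with Icam1 (1.75), Itgae (1.75) and Itga4 (1.21). The B cell attractant gene Cxcl13 fell by 2.76, a call lost without Hom replicate 2 (adjusted p = 0.078) or Hom replicate 3 (0.075). It measured 12.0, 2.82 and 2.27 CPM in WT livers, and without WT replicate 1 the fall was smaller, at -1.60 (adjusted p = 0.038).

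The list counts depended on single livers. With WT replicate 2, WT replicate 3, Hom replicate 2 or Hom replicate 3 left out, the pan-leukocyte count was 2, 1, 1 and 1, and it was 19 without WT replicate 1. In that same order the T cell count was 2, 4, 3 and 2, the B and plasma cell count 1, 2, 2 and 3, and the NK and cytotoxic count 1, 1, 1 and 1. The NK and cytotoxic count was 8 without WT replicate 1 and 7 without Hom replicate 1, and the activation count was 4 without Hom replicate 2. Over all genes, 2070 of 14230 were higher without WT replicate 2 and 2438 of 14142 without WT replicate 3. Without Hom replicate 2 or Hom replicate 3 it was 2023 of 14014 and 1986 of 14020. Without WT replicate 1 it was 21.5%, and without Hom replicate 1 it was 2708 of 14077.

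Markers of other cells and of blood were read in the same livers. The 9 members summed to 24.0, 10.8 and 11.6 CPM in WT livers and 25.2, 45.6 and 40.6 CPM in Hom livers. The summed level of 22 Kupffer cell and macrophage genes was 454 to 1022 CPM in WT and 856 to 1054 CPM in Hom (6 of 22 higher, 4 lower, where 21.5% of all genes were higher), with WT replicate 1 again the highest WT liver. Without WT replicate 1, 14 of these 22 were higher and 3 lower, next to 21.5% of all genes higher. That of 13 neutrophil genes was 9.81 to 202 CPM in WT and 28.5 to 74.8 CPM in Hom, the highest value being WT replicate 1 at 13.7 times the mean of the other WT livers. Of 9 neutrophil genes tested, 0 were called by edgeR or DESeq2, also at an unadjusted p under 0.05, and 4 were higher without WT replicate 1. That of 9 red blood cell genes was 529 to 1416 CPM in WT and 708 to 2165 CPM in Hom, the highest value of each group being replicate 1. Of 7 tested, 0 were higher by edgeR or DESeq2, also at an unadjusted p under 0.05, and 2 were lower by edgeR, while 4 of 8 were higher without WT replicate 1. Of 10 cholangiocyte genes 9 rose, and their sum was 72.7 to 104 CPM in WT and 635 to 890 CPM in Hom. Of 18 hepatocyte genes 12 fell, and their sum remained the largest of all lists in every liver (103400 CPM or more). None of the genes in these 5 lists that matched the table was at 0 in every liver. The sum of 10 stellate cell genes was 209 to 230 CPM in WT and 513 to 634 CPM in Hom (5 higher, 1 lower). That of 10 endothelial cell genes was 231 to 313 CPM in WT and 192 to 199 CPM in Hom (1 higher, 5 lower). The part of all these cells, or of blood left in the tissue, in the values of the 9 members was not tested.

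**Figure D5:**
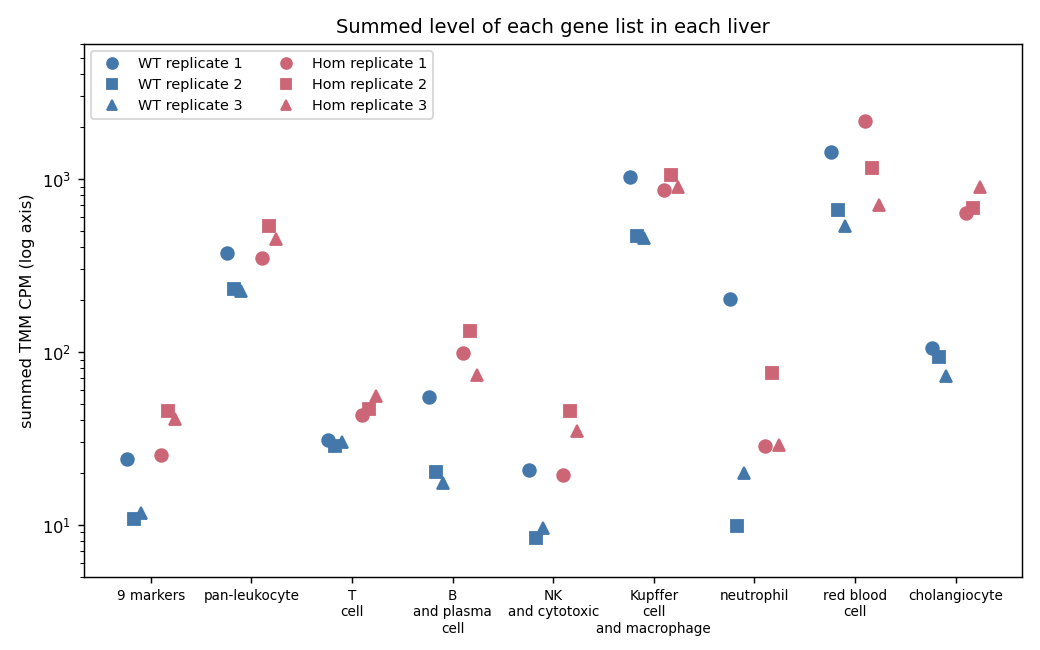
Summed TMM CPM (vertical log axis) of the 9 marker genes and of 8 gene lists in each WT (blue) and Hom (red) liver, with circles for replicate 1. WT replicate 1 is the highest WT liver for all 9 sums, from 1.06 times (T cell) to 13.7 times (neutrophil) the mean of the other WT livers.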

How the data were processed

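Total RNA of about 100 mg of frozen liver per mouse was sequenced. The submitters' processing notes name HISAT2 2.0.4, Bowtie2 2.2.5, RSEM 1.2.12 and the mouse build mm9, and the authors deposited estimated counts, FPKM and TPM per gene and library. Strandedness is not given in the sources used here. Columns of group averages and of the authors' own comparisons (fold changes and their p- or q-values) were not used.

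Estimated counts were rounded, filtered with filterByExpr, scaled by TMM and tested with edgeR 4.0.16 (quasi-likelihood, Hom against WT, 3 livers each, Benjamini-Hochberg threshold 0.05 over all genes tested). A 95% interval uses the fit's own degrees of freedom. Deposited TPM served only to order levels of genes and FPKM was not used further. TMM factors were 0.806 to 0.924 in WT and 1.09 to 1.23 in Hom. Ratios to Ptprc used scipy 1.17.1. Likeness used log2 CPM with a prior count of 2. Each library came from a separate mouse. With 3 livers a group and few counts per member, precision is limited by both. The test was checked on simulated data.

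Members and gene lists were chosen with earlier results of these data known. Named genes were the members, Nek7, the called genes and the 3 most abundant of the pan-leukocyte, T, B and NK lists, the 3 nearest genes of each member and the library checks. Other genes were named after their values were seen. Some listed genes are counted but not reported here by name. Coordinates and promoters are of GRCm38, from GENCODE M21 and RefSeq, and were not converted.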

Additional observations from a re-analysis of the deposited data

How the results depend on the processing

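Of 232 recomputed fold changes and counts, 159 kept their direction and side of the threshold or, for counts, stayed within 1.5 times. Of 56 recomputed ratios to Ptprc, 50 moved by less than 1 SD, and 9 changed sign, namely 5 against the pan-leukocyte sum (Cd3e, Cd8a, Cd79a, Nkg7 and Gzma), Cd3e without WT replicate 2 (0.08) or Hom replicate 1 (0.15), Cd8a without WT replicate 3 (0.11) and Cd79a without Hom replicate 3 (0.14). Leaving out 1 liver gave log2 fold changes of 1.34 to 2.37 for Ptprc, 1.43 to 2.11 for Cd3e, -0.44 to 0.10 for Cd4, 0.86 to 1.50 for Cd8a, 0.56 to 2.29 for Cd79a, 0.47 to 1.47 for Nkg7, 0.97 to 1.84 for Gzma and -0.38 to 0.49 for Klrb1c, 0 to 3 members higher, and 1767 to 2750 genes lower in all. It gave 1 to 19 pan-leukocyte, 2 to 11 T cell, 1 to 6 B and plasma cell, 1 to 8 NK and cytotoxic and 4 to 8 activation genes higher. Without replicate 1 of both groups, an alternative added after the data were seen, Ptprc (2.59) and Cd3e (2.46) stayed called, Cd8a (1.72), Cd79a (2.04), Nkg7 (1.89) and Gzma (2.16) became called, and Klrb1c (0.67) turned sign uncalled. The counts were then 7 members, 19 pan-leukocyte, 13 T cell, 10 B and plasma cell, 12 NK and cytotoxic and 11 activation genes higher, with 2871 genes lower in all.

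With library size alone, which moved the median of all genes by 0.45, 6574 genes were higher and 642 lower (91.1% of calls higher, against 51.7%). Cd8a (1.69) and Gzma (1.72) became called, Cd4 (0.32) and Klrb1c (0.32) turned sign uncalled, and 4 members, 17 pan-leukocyte, 8 B and plasma cell and 6 NK and cytotoxic genes were higher. Upper-quartile factors gave 5 NK and cytotoxic genes, and 62.8% of all calls higher. A fold change of at least 1 on the log2 scale left 1825 genes higher and 575 lower. A minimum of 10 counts in every liver left only Ptprc and Cd4 of the members in the fit (1 higher), and 2 T cell, 2 B and plasma cell, 4 activation and 8 homing genes higher. DESeq2 called the same 2 members. Against the pan-leukocyte sum, the ratios of Cd3e (0.93), Cd8a (0.68), Cd79a (0.75), Nkg7 (0.04), Gzma (0.64) and Klrb1c (-0.68) moved by more than 1 SD. The cause of these shifts was not tested. Counts of 0 to 65 per liver limit the precision of every member but Ptprc and Cd4.

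Same-numbered livers did not deviate together (correlations -0.109, -0.056 and -0.049), so this check gave no sign that the replicate numbers pair the samples. With 3 livers a group, it cannot show that they do not. With the replicate block, Ptprc (1.77, adjusted p = 0.057) and Cd3e (1.62, adjusted p = 0.106) were not called, and 0 of 8 members (2 at an unadjusted p under 0.05 by edgeR), 3 pan-leukocyte, 6 T cell and 1 NK and cytotoxic gene were higher. Over all genes, 2383 of 13805 were called higher in that fit.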

Other observations

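Of 11 dendritic cell genes tested, 3 rose and 0 fell in Hom livers (median log2 fold change 1.07), where 21.5% of all genes tested were higher. The count was 5 of 12 without Hom replicate 1 and 7 of 12 without replicate 1 of both groups. These were Itgax (2.97 ± 0.44, adjusted p = 0.0027 by edgeR's quasi-likelihood test), which macrophages also carry, Cd24a (2.91 ± 0.46, adjusted p = 0.0034), which biliary cells also carry, and Irf8 (1.23 ± 0.29, adjusted p = 0.016). The genes of conventional type 1 dendritic cells Xcr1 (1.07 ± 0.45, adjusted p = 0.093) and Clec9a (0.37 ± 0.37, adjusted p = 0.45) were not called, nor was Siglech of plasmacytoid dendritic cells (1.12 ± 0.74, adjusted p = 0.26).

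Tigit, which encodes an inhibitory receptor of T and NK cells, was listed at 94.3 ± 12.7 CPM in WT livers and 92.8 ± 16.0 CPM in Hom livers (SD, n = 3), with a log2 fold change of -0.02 ± 0.15 (adjusted p = 0.91). In the same WT livers the mean was 8.12 CPM for Ptprc and 0.436 CPM for Cd3e. Per length, Tigit was at 5.54 TPM in WT livers, against 2.54 TPM for Ptprc. A level above the pan-leukocyte transcript is more than T and NK cells would be thought to give, and the source of these reads was not tested. Tigit was singled out after its values were seen.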
